A study of Mus musculus with 18 samples.

Results

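The genes described here are 9 genes of myelin and of the mature oligodendrocyte, the cell that makes it: Mbp, Mog, Mag, Mobp, Cnp, Cldn11, Mal, Opalin and Ugt8a. They were chosen by gene symbol from the 48440 genes of the deposited table, and each symbol matched 1 row. RNA was sequenced from mouse brain in 3 groups of 6 libraries: wild-type mice on a control diet, 5xFAD mice on the control diet, and 5xFAD mice on a diet with L-fucose, each diet given for 1 month. The 5xFAD line carries human transgenes with familial Alzheimer's disease mutations under elements of the mouse Thy1 gene, which act mainly in neurons, so both 5xFAD groups share the transgenes and differ in diet. No wild-type mice on the fucose diet are among the samples used here, so an effect of the diet without the transgenes could not be measured. The labels name the tissue as brain and give no region, age, sex or batch, nor whether each library is a separate animal. P-values therefore measure the spread between libraries, which may be partly technical.

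Oligodendrocytes wrap axons in many turns of membrane, and the compacted membrane, myelin, speeds conduction and supports the axon. Its proteins fall into those that hold the membrane faces together, those that face the axon or the outside of the sheath, those that seal or sort the membrane, and the enzymes that make its lipids. In bulk tissue such genes are read both for the amount of myelinating cells and for how much RNA each makes, and fewer cells of a type and less RNA per cell cannot be told apart.

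The promoter windows of 3 of the genes are shown because the results below turn on them: Cldn11 had the smallest p-value of the 9, and Mobp and Opalin moved in opposite directions in 1 library. Each window runs from 250 bases before to 50 bases after a RefSeq transcription start (GRCm38.p6), 5′ to 3′ on the gene's strand. Capitals mark ACAAAG or its reverse complement CTTTGT, a short sequence that SOX-family factors such as SOX10 can bind, and CTGGCAC or CTGGTAC or their reverse complements, a sequence that MYRF can bind. Both factors are regulators of myelin genes.
Mobp: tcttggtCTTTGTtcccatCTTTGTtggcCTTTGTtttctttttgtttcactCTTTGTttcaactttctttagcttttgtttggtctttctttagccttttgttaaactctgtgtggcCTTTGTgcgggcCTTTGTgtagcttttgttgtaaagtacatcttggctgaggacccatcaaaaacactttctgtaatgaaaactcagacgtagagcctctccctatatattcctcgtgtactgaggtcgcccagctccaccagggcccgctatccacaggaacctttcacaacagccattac
Opalin: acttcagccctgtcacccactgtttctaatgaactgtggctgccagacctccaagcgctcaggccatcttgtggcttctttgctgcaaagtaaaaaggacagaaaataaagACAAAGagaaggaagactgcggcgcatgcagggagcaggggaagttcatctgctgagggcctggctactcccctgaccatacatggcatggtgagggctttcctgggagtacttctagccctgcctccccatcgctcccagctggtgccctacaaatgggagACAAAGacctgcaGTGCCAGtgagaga
Cldn11: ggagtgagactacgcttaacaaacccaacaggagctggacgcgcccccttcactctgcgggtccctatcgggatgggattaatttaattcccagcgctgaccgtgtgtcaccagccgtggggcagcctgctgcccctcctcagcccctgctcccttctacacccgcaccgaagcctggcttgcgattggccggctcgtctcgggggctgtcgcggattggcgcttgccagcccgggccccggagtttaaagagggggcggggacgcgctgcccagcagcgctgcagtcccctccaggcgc
The Mobp window lies at chr9:120149492-120149791 on the plus strand, the Opalin window at chr19:41077064-41077363 on the minus strand, and the Cldn11 window at chr3:31149670-31149969 on the plus strand. The Mobp window held 6 matches to the SOX sequence and the Opalin window 2, with 1 match to the MYRF sequence in Opalin. The Cldn11 window held neither sequence. Windows were found for 8 of the 9 genes, and of these Mag and Cnp also held 1 match to the SOX sequence, while Mog, Mag and Cnp each held 1 to the MYRF sequence. The 8 genes had 10 windows in all: Mag windows 1 and 2, which overlap, held its matches, and Mag window 3 held neither sequence. Among all 32851 promoter windows of the same length, 18.7% held at least 1 SOX match, 2.37% at least 2, and 11 windows (0.0335%) at least 4, while 7.10% held a MYRF match. The motifs and the windows printed were chosen after the values were seen, and a match describes letters only.

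Library depth was 31449637 to 44231899 reads assigned to genes, with a median of 38926760. All 9 genes were far above the noise of counting: the lowest single value was 450 normalized counts, for Opalin. Normalized counts are the authors' counts divided by a factor per library, so they compare libraries for 1 gene, and the genes were compared with each other only per kilobase of exon. On that scale Mbp, myelin basic protein, which joins the inner membrane faces, was highest, at 22843 ± 2666 normalized counts per kilobase in wild-type libraries (SD, n = 6). Mobp, a second small basic protein of compact myelin, followed at 7418 ± 689. Cnp, a phosphodiesterase of uncompacted myelin, stood at 6657 ± 507, and its libraries overlapped with those of Mobp. Cldn11 (4500 ± 334), Mag (3536 ± 384) and Mal (3287 ± 396) formed a middle range in which neighbours overlapped. Mog stood at 2236 ± 293, below every Mal library. Opalin (556 ± 103) and Ugt8a (436 ± 108) were lowest and overlapped with each other.

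This order was the same in the 5xFAD control-diet group. In the fucose-diet group it differed only in that Mal (3408 ± 327) and Mag (3328 ± 511) changed places, with overlapping libraries. The separation of Mbp from Mobp and of Mog from Opalin held in all 3 groups, whereas Cnp and Cldn11 were separate in wild-type libraries and overlapped in both 5xFAD groups. Pmp2, a lipid-binding protein of Schwann cells, the myelinating cells of peripheral nerve, ranged from 0 to 0.886 normalized counts.

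**Figure D1:**
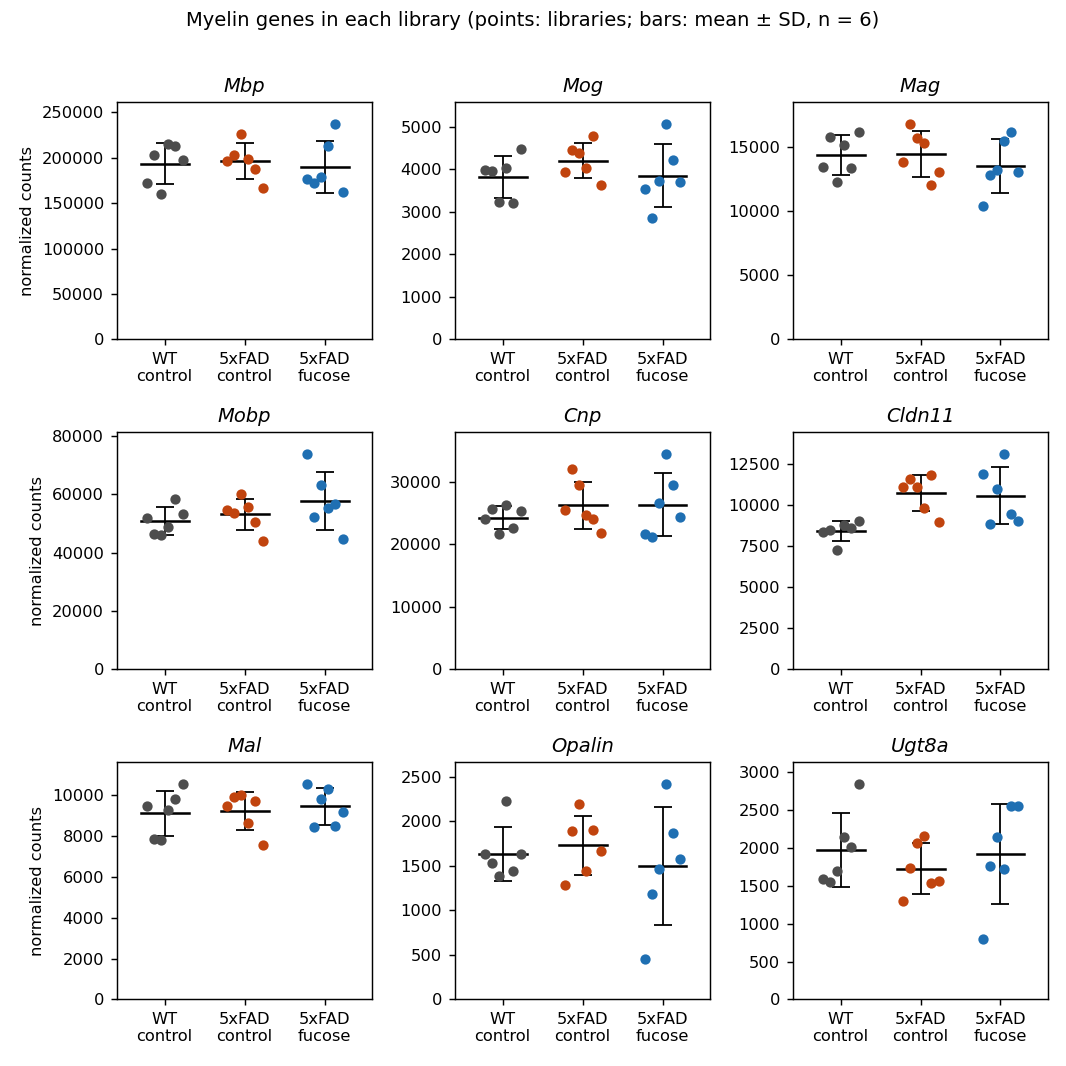
Normalized counts (linear axis from 0) of the 9 genes in each library; points are libraries in replicate order, horizontal bars the mean and whiskers the SD of 6 libraries. Cldn11 sits higher in 5 of 6 5xFAD control-diet libraries than in any wild-type library, and the fucose-diet group holds a single low point for Opalin (450) and Ugt8a (799).

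The first comparison, 5xFAD against wild type on the same diet, asks how the transgenic line differs. Log2 differences of the 9 genes between these groups ran from -0.18 for Ugt8a to 0.34 for Cldn11. None of the 9 passed a false discovery rate of 0.05 (limma with Benjamini-Hochberg adjustment over 18808 tested genes), beside 2.14% of all tested genes, of which 1.97% were higher and 0.165% lower. At an unadjusted p under 0.05 stood 1 of 9, Cldn11, beside 11.4% of all genes. Differences were positive for 8 of 9, with a median log2 fold change of 0.06, against -0.01 over all tested genes. These directions rested on few libraries: 5 were positive without wild-type replicate 3, 4 without 5xFAD control-diet replicate 3, and 3, with a median of -0.05, without the 3 libraries low in Prkcd that are described below. For none of the 9 were the groups' libraries apart from each other, beside 2.07% of all genes. The 95% interval of the fold change lay within 1.5-fold either way for 7 genes and within 2-fold for all 9, so larger differences than these were outside the intervals.

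Cldn11 encodes claudin-11, which forms the tight junctions between the layers of the sheath. Its normalized counts were 7239 at the lowest, 8554 at the median and 9036 at the highest among wild-type libraries. In 5xFAD libraries on the control diet they were 8951, 11085 and 11798. All 5xFAD libraries but replicate 6 exceeded every wild-type library, and that replicate lay inside the wild-type range.

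The means were 8415 ± 624 and 10711 ± 1107 normalized counts (SD, n = 6), a 1.27-fold difference with a 95% interval of 1.11 to 1.45. On the log2 scale the difference was 0.34 ± 0.09 (SE), with an adjusted p of 0.0575 (limma), outside the threshold. The call depended on the method: it passed with edgeR's quasi-likelihood test (adjusted p = 0.0414), DESeq2 (adjusted p = 0.0216) and limma voom (adjusted p = 0.0451) on recovered reads. It also passed without 5xFAD control-diet replicate 6 (0.40, limma adjusted p = 0.0256). Over 26 alternatives it passed in 7, the adjusted p ranged from 0.0216 to 0.157, and the direction was positive in each.

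Claudin-11 is also made by cells of the meninges, so 10 genes of meningeal fibroblasts were read beside it. None of these 10 was called in this comparison (limma adjusted p at least 0.505; 0 at an unadjusted p under 0.05), and 2 of 10 differences were positive, with a median of -0.15. Their summed level ranged from 7420 to 10471 normalized counts in wild-type libraries and from 4937 to 10732 in 5xFAD control-diet libraries. The part of meningeal cells in the Cldn11 values was not tested.

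RNA levels of Mbp and Mobp, which encode structural proteins of compact myelin, were close between these groups. Mbp was 193455 ± 22578 normalized counts in wild type and 196308 ± 19409 in 5xFAD, a log2 difference of 0.02 ± 0.10 (SE; limma adjusted p = 0.959). Mobp was 50808 ± 4717 and 53163 ± 5425, a log2 difference of 0.06 ± 0.10 (adjusted p = 0.864). Both pairs of groups overlapped over most of their range.

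Of the proteins on the sheath's surfaces, Mog, which sits on its outermost layer, was 3809 ± 498 and 4201 ± 414 normalized counts, a log2 difference of 0.15 ± 0.11 (limma adjusted p = 0.671). Mag, a lectin of the innermost layer that contacts the axon, was 14398 ± 1564 and 14487 ± 1782, a log2 difference of 0.01 ± 0.10 (adjusted p = 0.985). Opalin, a sialylated glycoprotein of oligodendrocytes, was 1638 ± 303 and 1729 ± 334, with a wide 95% interval of 0.678 to 1.63 in fold. The interval for Opalin leaves room for a larger difference in either direction than those of Mog and Mag do.

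Mal, a membrane protein that sorts lipid and protein to the sheath, was 9131 ± 1101 normalized counts in wild type and 9223 ± 946 in 5xFAD (log2 difference 0.02 ± 0.09, limma adjusted p = 0.968). Cnp was 24223 ± 1844 and 26234 ± 3757 (0.11 ± 0.11, adjusted p = 0.771). Ugt8a, the enzyme that makes galactosylceramide, was the single gene of the 9 with a lower mean in 5xFAD, at 1977 ± 488 and 1729 ± 333 normalized counts. Its log2 difference was -0.18 ± 0.24 (adjusted p = 0.840), less than its spread between libraries.

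**Figure D2:**
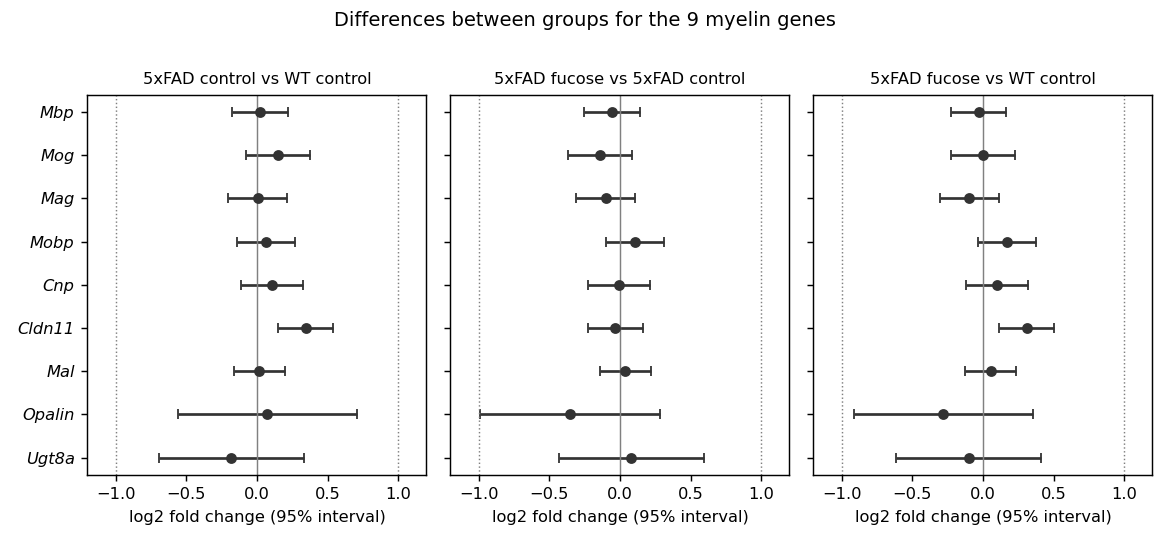
Log2 fold change (point) and 95% interval (line) of each gene from limma in the 3 comparisons; the solid line marks 0 and dotted lines mark 2-fold. The interval of Cldn11 lies above 0 in both comparisons with wild type, and those of Opalin and Ugt8a are the widest in each panel.

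The fucose diet was compared within 5xFAD mice. None of the 9 genes changed at the threshold (limma, Benjamini-Hochberg adjusted), beside 0% of all tested genes, and edgeR, DESeq2 and limma voom called 0 as well. At an unadjusted p under 0.05 stood 0 of the 9, beside 5.34% of all genes. Differences were positive for 3 of 9, the median log2 fold change was -0.03 and that of all genes was 0.00. No gene of the 9 had groups whose libraries were apart, beside 0.186% of all genes. The 95% interval lay within 1.5-fold either way for 7 of 9 and within 2-fold for all 9.

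Cldn11 on the fucose diet had a lowest value of 8812, a median of 10207 and a highest of 13084 normalized counts, against 8951, 11085 and 11798 on the control diet. The fucose-diet group spanned the whole of the other. Its fold difference was 0.977 with a 95% interval of 0.854 to 1.12 (limma adjusted p = 0.959).

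Mobp had its highest values here: 44559 at the lowest, 56103 at the median and 73873 at the highest on the fucose diet, against 44156, 54117 and 60210 on the control diet. Replicates 1 and 3 exceeded every control-diet library and the others overlapped with them. The log2 difference was 0.11 ± 0.10 (SE; limma adjusted p = 0.861), and 0.03 without fucose-diet replicate 1.

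Opalin was the gene with the largest difference in mean log2 value, -0.35 ± 0.30 (SE; limma adjusted p = 0.849; fold interval 0.505 to 1.22). Its values were 450, 1522 and 2419 normalized counts at the lowest, median and highest on the fucose diet, against 1282, 1775 and 2194 on the control diet. Both the lowest and the highest of these 12 libraries were on the fucose diet. Without fucose-diet replicate 1 the log2 difference was -0.04 (limma adjusted p = 0.975), so that library carried most of it.

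Ugt8a had a lowest value of 799, a median of 1955 and a highest of 2561 normalized counts on the fucose diet, against 1298, 1652 and 2165 on the control diet. The lowest was again replicate 1, and 2 fucose-diet libraries exceeded every control-diet one. The log2 difference was 0.08 ± 0.24 (limma adjusted p = 0.960) and 0.31 without replicate 1 (adjusted p = 0.811).

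For the other 5 genes the log2 differences between diets ran from -0.14 for Mog to 0.04 for Mal. Mean normalized counts on the fucose diet were 190016 ± 28805 for Mbp, 3847 ± 737 for Mog, 13550 ± 2080 for Mag, 26285 ± 5032 for Cnp and 9467 ± 909 for Mal (SD, n = 6). The spread was wider on the fucose diet than on the control diet for all genes but Mal: the coefficient of variation of Opalin, for example, was 44.2% against 19.3%, and that of Mag 15.4% against 12.3%. The difference in spread was not tested.

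The third comparison, 5xFAD on the fucose diet against wild type on the control diet, changes genotype and diet together and shares its libraries with the other comparisons. None of the 9 genes passed (limma), beside 2.00% of all genes (1.91% higher, 0.0904% lower), and 1 of 9, Cldn11, had an unadjusted p under 0.05, beside 10.9% of all genes. DESeq2 called 1 of the 9, Cldn11 (adjusted p = 0.0456), while edgeR and limma voom called 0. Cldn11 was 10533 ± 1729 normalized counts against 8415 ± 624, a 1.24-fold difference with an interval of 1.08 to 1.42 (limma adjusted p = 0.112). Of 6 fucose-diet libraries, 4 lay above every wild-type library and the others inside the wild-type range.

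Mobp had the next smallest p of the 9 in that comparison, at 57691 ± 9994 against 50808 ± 4717 normalized counts (log2 difference 0.17 ± 0.10, limma adjusted p = 0.570). The remaining log2 differences ran from -0.28 for Opalin to 0.10 for Cnp, 5 of 9 were positive, and the median was 0.00 against -0.01 over all genes. No gene had groups that were apart, beside 1.56% of all genes. Without fucose-diet replicate 1, Opalin moved to 0.03 and Ugt8a from -0.10 to 0.13.

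Fucose-diet replicate 1 stood apart in the balance between these genes rather than in their sum. It was the lowest of all 18 libraries for Opalin (450 normalized counts), Ugt8a (799) and Mag (10416), and the highest for Mobp (73873). Relative to the geometric mean of its group, Opalin was at 0.338-fold, Ugt8a at 0.444-fold, Mag at 0.777-fold and Cnp at 0.837-fold, while Mobp was at 1.30-fold, Cldn11 at 1.14-fold and Mal at 1.12-fold. The SD over the 9 genes of these log2 deviations was 0.65 in that library and 0.04 to 0.28 in the other 17.

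Sox10, a transcription factor of the oligodendrocyte lineage, was read in this library after its values were seen. It was at 2623 normalized counts against 3375 to 6001 elsewhere. Genes known to respond to glucocorticoids, also picked after seeing the data, were at their highest in the same library. Fkbp5 was at 6212 normalized counts against a median of 1222 and a maximum of 2408 in the others, and Sgk1 at 12319 against 3746 and 5981. Plin4 was at 8536 against 413 and 1866, and Cdkn1a at 8813 against 1045 and 2240. Whether these genes and the myelin genes moved for the same reason was not tested.

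**Figure D3:**
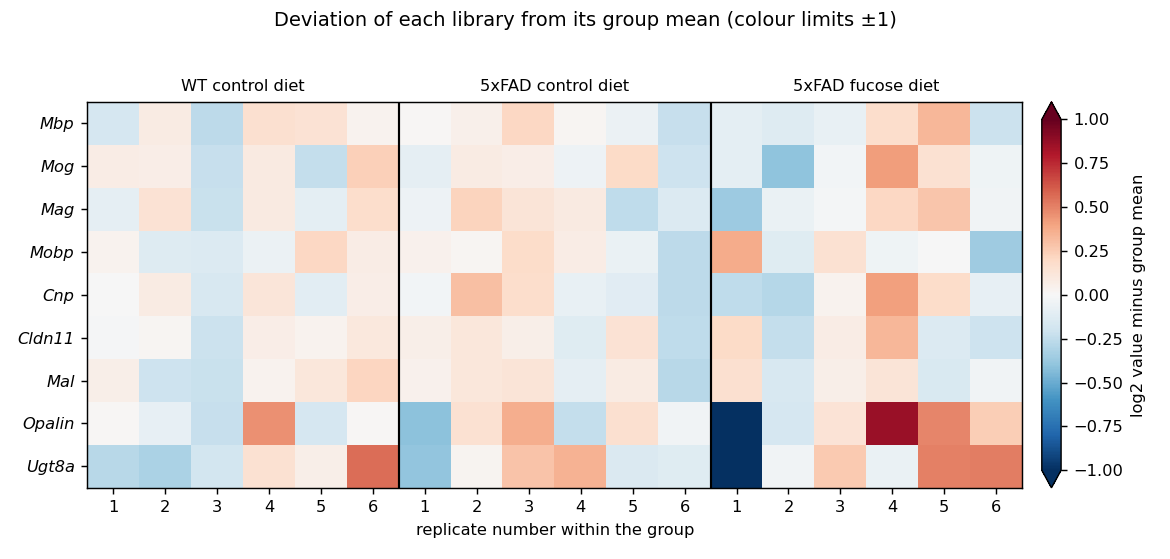
Log2 value of each gene in each library minus the mean of its group, on a colour scale limited to ±1 (red above, blue below). Fucose-diet replicate 1 is deep blue for Opalin and Ugt8a and red for Mobp, wild-type replicate 3 is pale blue throughout, and fucose-diet replicate 4 is red for Opalin, Mog and Cnp.

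Wild-type replicate 3 was among the 3 lowest of the 18 libraries for 7 of 9 genes, with a near-even shift (SD of deviations 0.04). Fucose-diet replicate 4 was the highest for 4 genes, with an uneven shift (SD 0.28), and had the highest mean log2 value, 13.8, against 13.2 in fucose-diet replicate 1, the lowest. Group means of that 9-gene value were 13.47 ± 0.13 in wild type, 13.53 ± 0.14 in 5xFAD on the control diet and 13.48 ± 0.22 on the fucose diet (SD, n = 6), and they overlapped throughout.

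In each group 1 library had far less Prkcd, a gene abundant in thalamus: wild-type replicate 3 (1110 normalized counts), 5xFAD control-diet replicate 3 (1121) and fucose-diet replicate 4 (1301), against at least 5832 elsewhere. Their 9-gene means ranked 2, 17 and 18 from the lowest of 18. Without these libraries 0 of 9 genes were called in each comparison. Between 5xFAD and wild type on the control diet, Cldn11 was then at 0.29 (limma adjusted p = 0.155). For fucose-diet 5xFAD against wild type 2 of 9 differences were positive, the median was -0.12, and Cldn11 stood at 0.20 (adjusted p = 0.405). The part of the dissected tissue in these results was otherwise not tested. Each group also held 1 library with little Xist (0 to 11.7 normalized counts, against at least 7251). Without those libraries Cldn11 in 5xFAD on the control diet stood at 0.33 (adjusted p = 0.157).

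The genes varied together between libraries of the same group, but not as 1 block. Over 18 libraries, with each gene centred on its group means, 30 of 36 pairs had a positive Pearson r, with a median of 0.43. After Benjamini-Hochberg adjustment over the 36 pairs, 10 pairs passed 0.05 by r, 8 by Spearman's rho and 7 by both (100000 permutations within groups, two-sided). None of the negative pairs passed.

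The closest pair was Mag and Cnp, with r = 0.82 and rho = 0.87 (adjusted permutation p = 0.00420 and 0.00216) and r = 0.79 without the 2 libraries farthest from the median of Mag. Cldn11 and Mal followed, with r = 0.81 and rho = 0.83 (adjusted permutation p = 0.00144 and 0.00216) and r = 0.74 without the 2 farthest. Mog and Cnp had r = 0.79 and rho = 0.76 (adjusted permutation p = 0.00420 and 0.00554), and 0.64 without the 2 farthest. Cnp had the highest r with the mean of the other 8 genes, 0.86, and Mobp the lowest, -0.06. Without fucose-diet replicate 1 these were 0.85 and 0.44, and Ugt8a was then lowest, at 0.28. As all pairs come from the same libraries, shared depth, dissection and normalization enter each of them.

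Some relations rested on fucose-diet replicate 1. Opalin and Ugt8a had r = 0.71 (adjusted permutation p = 0.109) and 0.22 without that library. Mobp and Opalin had r = -0.45 (adjusted permutation p = 0.326) and 0.07 without it. Among the pairs that passed by r, Mag and Opalin went from 0.67 to 0.48 without it, and Mag and Ugt8a from 0.65 to 0.43. Neither of these passed by rho (adjusted permutation p = 0.0787 and 0.0804). Leaving that library out, 35 of 36 pairs were positive and the median r was 0.50.

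**Figure D4:**
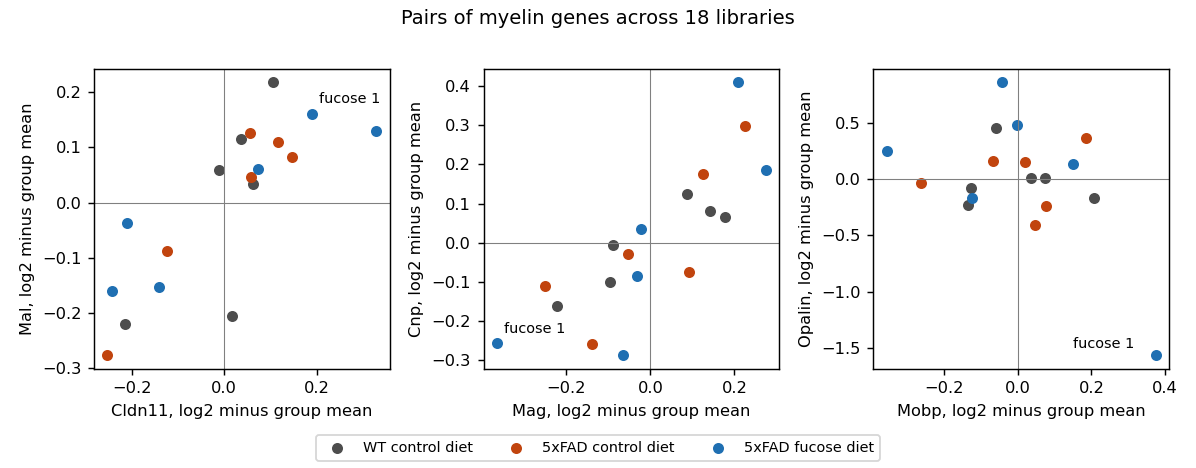
Log2 values minus group means for 3 pairs of genes, 1 point per library, coloured by group. Cldn11 with Mal and Mag with Cnp rise together in all 3 groups (r = 0.81 and 0.82), whereas the negative slope of Opalin on Mobp (r = -0.45) is set by fucose-diet replicate 1.

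The genes outside the 9 whose pattern was most like their mean over the 18 libraries, centred on group means, were Sept4 (r = 0.88), Cdk18 (0.86), Aspa (0.85), Itgb4 (0.85), Prr18 (0.84), Tmem88b (0.84), Efhd1 (0.84) and Lpar1 (0.84). Aspa encodes the enzyme that splits N-acetylaspartate in oligodendrocytes, and Lpar1 a receptor for lysophosphatidic acid. The most opposite were Rbfox1 (-0.87), a neuronal splicing factor, Atp2b1 (-0.84), a calcium pump, and Syne1 (-0.82). These values describe the likeness over 18 libraries and carry no test.

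Other genes of the lineage were read from lists of known genes beside the 9. In 5xFAD against wild type on the control diet, 1 of 15 other structural myelin genes rose, Cd9, a tetraspanin also made by microglia and astrocytes: 1759 ± 375 normalized counts in wild type and 4171 ± 291 in 5xFAD (log2 difference 1.27 ± 0.14, limma adjusted p = 2.61e-06). The other 14 did not pass, and the median of the list was 0.02. Of 19 other genes of the mature cell, 1 rose, Gsn, the actin-severing protein gelsolin (0.40 ± 0.10, adjusted p = 0.0357). That call ended without any one of wild-type replicates 1, 3, 5 and 6 or 5xFAD control-diet replicates 1 to 4, where log2 differences were 0.34 to 0.41 and adjusted p 0.0538 to 0.120. Without the low-Prkcd libraries it ended too (0.37, adjusted p = 0.112). Over all 26 alternatives Gsn passed in 15.

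Of 13 transcription factors of the lineage, 1 rose, Nkx6-2, a homeodomain factor (0.46 ± 0.12, limma adjusted p = 0.0405). That call ended without any one of wild-type replicates 1, 2, 3, 5 and 6 or 5xFAD control-diet replicates 2 to 5 (0.38 to 0.46, adjusted p 0.0649 to 0.118), and with edgeR (adjusted p = 0.0614). Over all 26 alternatives Nkx6-2 passed in 12. None of 9 lipid synthesis genes, 12 genes of newly formed oligodendrocytes or 10 genes of precursors passed (limma; 0, 1 and 1 at an unadjusted p under 0.05). The 1 in both of the last lists was Neu4, a sialidase gene (-0.37 ± 0.15, adjusted p = 0.310). Of 15 genes of axon and glia contact, 0 passed and 4 had an unadjusted p under 0.05 (limma), beside 11.4% of all tested genes. All 15 differences were negative, with a median of -0.16, against -0.01 over all tested genes. Many of these genes are axonal, and of 14 neuron markers 1 difference was positive, that of Thy1, whose elements drive the transgenes, with a median of -0.10 and none of the others called. The summed neuron markers, Thy1 included, ranged from 365579 to 422487 normalized counts in wild type and from 433174 to 490458 in 5xFAD. Their part in the contact list was not tested. Nrg1, an axonal growth factor for myelinating glia, was at -0.40 ± 0.14 (adjusted p = 0.205). Cntnap1, an axonal protein of the paranode, was at -0.25 ± 0.10 (adjusted p = 0.261).

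Of 12 genes that oligodendrocytes raise in disease models, 7 rose, among them Serpina3n, a protease inhibitor (2.84 ± 0.22), C4b, a complement component (2.65 ± 0.23), and Ctsb, a lysosomal protease (0.54 ± 0.07). Astrocytes and microglia also make most of them. Of 13 microglial markers 11 rose, with summed levels of 17174 to 22237 normalized counts in wild type and 44011 to 56467 in 5xFAD. Of 12 astrocyte markers 1 rose, Gfap, 8 differences were positive and the median was 0.14; their sum, Gfap included, was 160701 to 186556 and 225907 to 276134. The part of those cells in the rise of Cd9, Serpina3n and C4b was not tested.

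With the fucose diet, 0 genes of any of these lists changed (limma, smallest adjusted p 0.822). Of the 15 contact genes, 13 differences between diets were positive, with a median of 0.11. The smallest unadjusted p among the mature genes was that of Trf, transferrin, at 1480 ± 243 against 1848 ± 206 normalized counts (log2 difference -0.33 ± 0.12). Anln was higher in mean (0.31 ± 0.12), and ran from 0.18 to 0.38 with single libraries left out. Its value in fucose-diet replicate 1 was 3097 normalized counts, where the next of that group was 1959. In the precursor list Neu4 stood at 0.39 ± 0.15 (limma adjusted p = 0.822). In that list 6 of 10 differences were positive, over a range of -0.20 to 0.53. Bmp4, in the list of newly formed cells, was at 0.57 ± 0.23 (limma adjusted p = 0.822). There 8 of 12 differences were positive, over a range of -0.36 to 0.64. At an unadjusted p under 0.05 (limma) stood 1 precursor gene and 2 genes of newly formed cells, beside 5.34% of all genes. Against wild type, fucose-diet 5xFAD libraries had higher Cd9 (1.08 ± 0.14, limma adjusted p = 2.46e-05). Gsn (0.37, adjusted p = 0.0675) and Zfp488, a zinc finger factor of the lineage (1.00, adjusted p = 0.0556), did not pass there. Myrf, the factor whose binding sequence is marked above, was at 0.35 ± 0.10 (adjusted p = 0.112).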

How the data were processed

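RNA of mouse brain was sequenced as poly(A)-selected libraries, per the labels' protocols. The build mm10 and the tools featureCounts 2.0.3, Trimmomatic 0.39, DESeq2 2.11.40.8 and HISAT2 2.2.1 are listed per the submitters' processing notes, with no roles; for the annotation release and strandedness, no statement was found (not given in the sources used here). Per gene, the deposited signal is a table of size-factor normalized read counts, although its name says raw counts. Dividing each library by the value of 1 read gave whole reads for 100% of values (tolerance 0.001). Libraries held 31449637 to 44231899 reads, which sets the counting error. Symbols turned into dates (27) were restored by gene ID.

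The main test was limma 3.58.1 in R 4.3.3 (trend and robust moderation) on log2(normalized count + 1), all 18 libraries in 1 fit, over 18808 genes kept by filterByExpr on the recovered reads (minimum count 10). Genes with a Benjamini-Hochberg adjusted p under 0.05 were called. Fold changes are on the log2(value + 1) scale. edgeR 4.0.16 and DESeq2 1.42.0 on recovered reads, other scalings, pseudocounts, filters, a replicate block and left-out libraries were alternatives. The procedure was tested on simulated data. Exon lengths came from GENCODE M21; 7 of 9 genes had the same coordinates there. Exons of Mobp and Cnp share 1.15% and 4.23% of bases with other genes, and reads there may be split.

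The 9 genes and all lists were chosen with earlier results of these data known. Named from each list were its called genes (at most 4 by p) or, with none, the 2 smallest p; the text gives the called genes and some of the others for the oligodendrocyte lists, and the 8 most alike and 3 most opposite genes by correlation. Same-numbered libraries of 2 groups did not regularly deviate together: of 18 correlations (-0.34 to 0.60) 7 exceeded 0.1 and 5 lay below -0.1. This check cannot exclude pairing. The labels do not say whether numbers pair libraries, so numbers were not treated as pairs. Replicates differed beyond sampling noise (chi-square per degree of freedom 12.3 to 56.9 over 45 pairs).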

Additional observations from a re-analysis of the deposited data

Results flagged for a closer look

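In 11 of 120 sets of 6 libraries tested for the genes named, 1 library lay far from the rest of its group; chance gives about 1 in 20. Of 27 such sets for the 9 myelin genes, 1 was flagged: Opalin at 2222 normalized counts in wild-type replicate 4, where the next was 1628. The same library was high for Cd9 (2513) and Nkx6-2 (1890). 5xFAD control-diet replicate 5 was high for Cd9 (4711), Sirt2 (10667) and Trf (2241), and replicate 4 for Nrg1 (330). Wild-type replicate 6 was high for C4b (6007). Fucose-diet replicate 4 was high for Nkx6-2 (1859). Fucose-diet replicate 1 was high for Anln (3097) and low for Fa2h (2139), an enzyme of myelin lipid hydroxylation.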

How the results depend on the processing

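Of 234 gene values per comparison (9 genes, 26 alternatives), 207, 220 and 218 kept their direction and side of the threshold in 5xFAD against wild type, fucose against control diet, and fucose-diet 5xFAD against wild type. All 9 that passed a threshold were Cldn11. The number of the 9 genes called became 1 in 5xFAD against wild type with TMM factors, CPM scaling, edgeR, DESeq2, limma voom and only the compared groups, and 0 to 1 over single libraries left out; in fucose-diet 5xFAD against wild type it became 1 with CPM scaling and DESeq2. Without a filter 1 gene in all was called between diets. Some signs turned, none of them of a called difference. With CPM scaling, Cnp between diets was 0.0067 and Mbp against wild type on fucose 0.0045; with DESeq2, Cnp was 0.0029. Without low-Xist libraries, Cldn11 and Ugt8a between diets were 0.024 and -0.049, and Mog on fucose against wild type -0.0099. Without low-Prkcd libraries (chosen after seeing the data), 5xFAD against wild type gave Mbp -0.070, Mag -0.063, Mobp -0.00013, Mal -0.053 and Opalin -0.046, and fucose-diet 5xFAD against wild type gave Mog -0.13, Cnp -0.014 and Mal -0.015. The cause was not tested. Leaving out single libraries, 5xFAD against wild type ran from -0.029 to 0.070 for Mbp, -0.038 to 0.057 for Mag, -0.028 to 0.072 for Mal and -0.00036 to 0.16 for Opalin. Between diets it ran from -0.088 to 0.053 for Cnp, -0.099 to 0.015 for Cldn11, -0.016 to 0.071 for Mal and -0.021 to 0.31 for Ugt8a; for fucose-diet 5xFAD against wild type, -0.097 to 0.012 for Mbp, -0.080 to 0.084 for Mog, -0.45 to 0.033 for Opalin and -0.20 to 0.13 for Ugt8a. Whether replicate numbers pair the libraries is not known (5 of 18 correlated best with their own number). With the replicate block, Cldn11 in 5xFAD stayed at 0.34 (limma adjusted p = 0.0693), and genes called went from 402 to 439, 0 to 0 and 376 to 412.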
